A study of Canis lupus familiaris with 10 samples.

Results

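The genes described here are the machinery of DNA replication and mitosis, 56 genes chosen by name for their place in these steps. The array annotation named 50 of the 56, and 6 members (CCNB1, BUB1, MAD2L1, KIF20A, CENPE and MKI67) are not analysed here because no probe set carried their name. All 50 passed the filter on low values, which kept a probe set if, on 3 or more of the 10 arrays, its signal exceeded the 40th percentile of all probe sets there. Each gene was read from 1 probe set, the one with the highest mean over the 10 arrays.

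A cell that enters the cycle first licenses its replication origins. CDC6 loads the MCM2-7 helicase, GINS proteins activate it, and PCNA, RFC and the polymerases copy the strands from deoxynucleotides that ribonucleotide reductase (RRM1, RRM2) and thymidylate synthase (TYMS) supply. The transcription factor E2F1 serves the first steps, MYBL2 and FOXM1 the later ones, and the mitotic kinases, the spindle proteins and the cytokinesis proteins then divide the cell. Most of these transcripts are made in a set phase of the cycle and are scarce in resting cells, so their joint level is commonly read as a measure of how many cells are dividing.

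The study asked whether the breed of a dog leaves a mark on the expression profile of its tumor. Each sample was a culture grown from the spleen of a dog with hemangiosarcoma, a malignant tumor named for the vessel-forming cells it resembles, and was measured once on an Affymetrix Canine_2 array. There were 6 Golden Retrievers, namely ChadG4, ChadG6, ChadG8, Frog, Tucker and Journey. The 3 non-Golden Retrievers were the Portugese Water Dog ChadP9, the Dalmation Dal4 and Joey, a Rottweiler by its title. DD1, the F1 dog of mixed breed, belonged to neither group. No treatment was labelled, and the cells had been frozen and were used at the earliest passages at hand. All 3 non-Golden Retrievers were male, whereas the Golden Retrievers were 3 males and 3 females. Frog and Journey were distant relatives. Passage number and confluence at harvest were not given for each culture, and each dog was measured only once, so the spread below holds the differences between dogs and between cultures together.

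The arrays were alike in overall signal, with medians between 5.77 and 5.83 on the log2 scale, and no pair was a duplicate, since the largest correlation of an array with another lay between 0.967 and 0.987. Of 16 endothelial markers, 5 (PECAM1, TEK, ESAM, EMCN and PLVAP) were above the 40th percentile of the array in no dog, and 7 were above it in every dog. Of 10 fibroblast markers, 9 were above it in every dog. Of 9 leukocyte markers, 5 (PTPRC, CD79A, ITGAM, LYZ and CD163) were above it in none, and the other 4 (CD3E, CD14, CD68 and CSF1R) in every dog. Of 7 smooth muscle markers, 5 were above it in every dog and 1 (LMOD1) in none.

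The cultures differed widely in the joint level of the 50 genes, and each breed group held dogs of high and of low level. The joint level of a dog is the mean over the members of its log2 signal minus the mean of that gene over the 10 dogs. It was highest in the Dalmation Dal4 (1.38), followed by the Golden Retrievers Frog (0.91) and ChadG4 (0.82). DD1 (0.15), ChadG6 (0.11) and Journey (-0.07) lay near the mean. Joey (-0.65), ChadP9 (-0.65) and ChadG8 (-0.69) were lower, and Tucker was lowest at -1.32. Between Dal4 and Tucker the members thus differed by 2.70 on the log2 scale, or 6.49-fold in the geometric mean, with 15 of them near background in Tucker. The error of a single dog's level was not measured, so neighbors in this order, such as Joey and ChadP9, cannot be ranked.

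Golden Retrievers had a mean joint level of -0.04 ± 0.86 (SD, n = 6), and that of non-Golden Retrievers was 0.03 ± 1.17 (SD, n = 3). The difference, Golden Retriever minus non-Golden Retriever, was -0.07, far smaller than the spread within either group, and it is given without a p-value because the members were chosen with earlier results of these data known. Without Dal4 it was 0.61, and among male dogs alone it was -0.43. In 48 of the 50 genes the non-Golden Retriever mean lay inside the Golden Retriever range, and DD1 lay inside it in 49. The same counts were not made over all tested probe sets, so they describe the members without showing anything particular to them. RNA from a culture is a bulk sample, so fewer cycling cells and less of a transcript in each cell cannot be told apart.

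**Figure D1:**
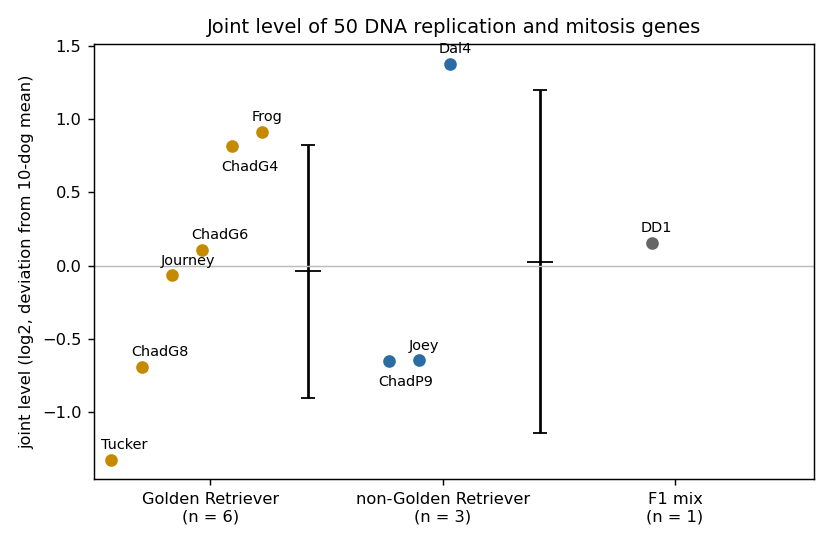
Joint level of the 50 members in each dog, on the log2 scale as the deviation from the 10-dog mean, by breed group. Points are dogs, and the black bars show the mean and SD of the Golden Retrievers (n = 6) and of the non-Golden Retrievers (n = 3). Golden Retrievers reach from -1.32 to 0.91 and non-Golden Retrievers from -0.65 to 1.38.

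The order of the dogs was carried by nearly all members and not by a few. Dal4 had the highest signal of the 10 dogs in 36 of the 50 genes and lay among the 3 highest in 47, ChadG4 did so in 45 and Frog in 42. Tucker had the lowest signal in 30 genes and lay among the 3 lowest in 43. Dal4 was above all 6 Golden Retrievers in 36 genes, and Tucker was below all 3 non-Golden Retrievers in 34. The 4 genes in which ChadG4 was highest include RFC4, POLA1 and KIF2C, and the 8 in which Frog was highest include CDC6, FEN1, CDC20 and TTK.

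**Figure D2:**
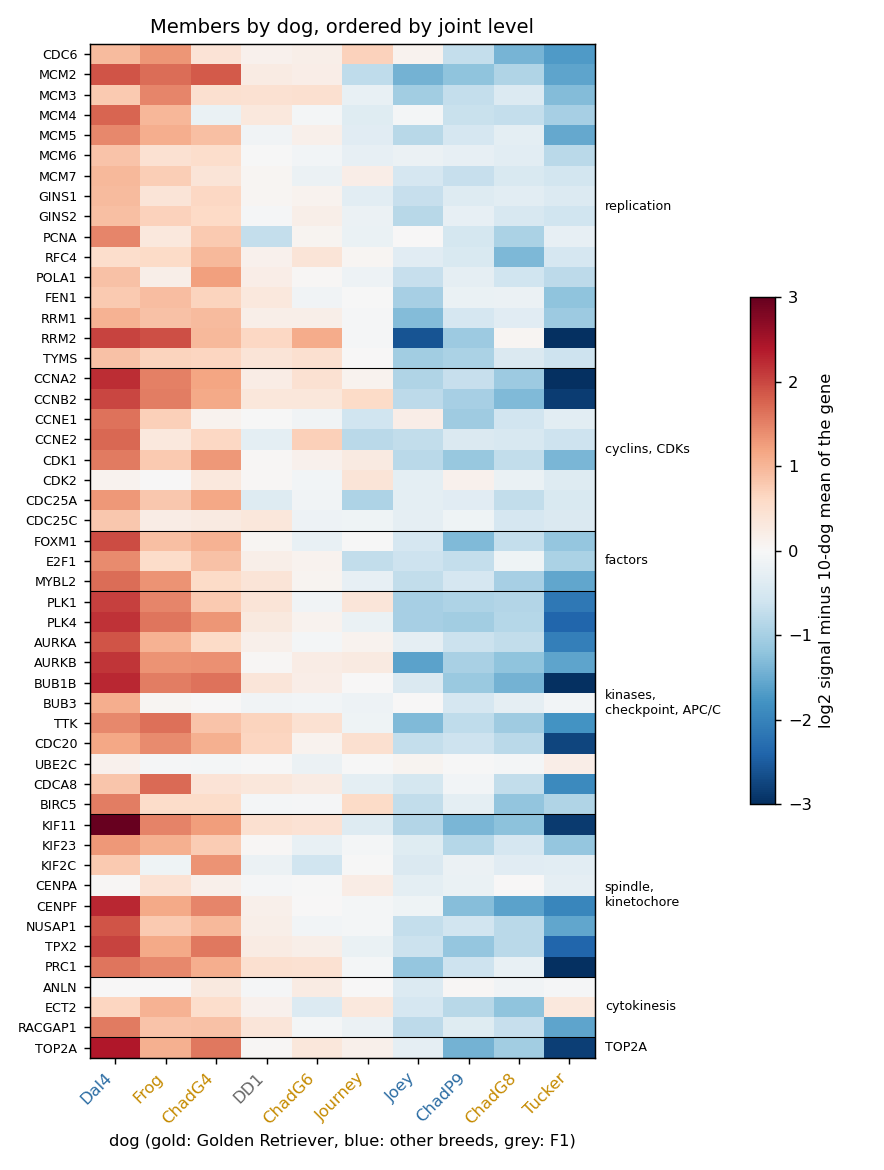
Deviation of each of the 50 members (rows, grouped by role) from its own 10-dog mean in each dog (columns, from the highest to the lowest joint level), in log2 units from -3 to 3. Red is above and blue below the mean: the Dal4, Frog and ChadG4 columns are red in nearly every row and the Tucker column is blue in most, while the rows of UBE2C, ANLN, CENPA and CDK2 stay pale.

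The members varied more than most probe sets. The SD of a member over the 10 dogs had a median of 0.86 on the log2 scale, against 0.33 over all 26891 tested probe sets. It exceeded the 90th percentile of all tested probe sets, 0.73, in 33 of the 50 genes and their median in 46. The extra spread lay within the groups: the members' median SD was 0.86 among Golden Retrievers and 1.21 among non-Golden Retrievers, while the medians over all tested probe sets were 0.30 in both. The highest and lowest dog differed more than 4-fold in 37 members and more than 16-fold in 10, with values below the 40th percentile of an array raised to it.

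**Figure D3:**
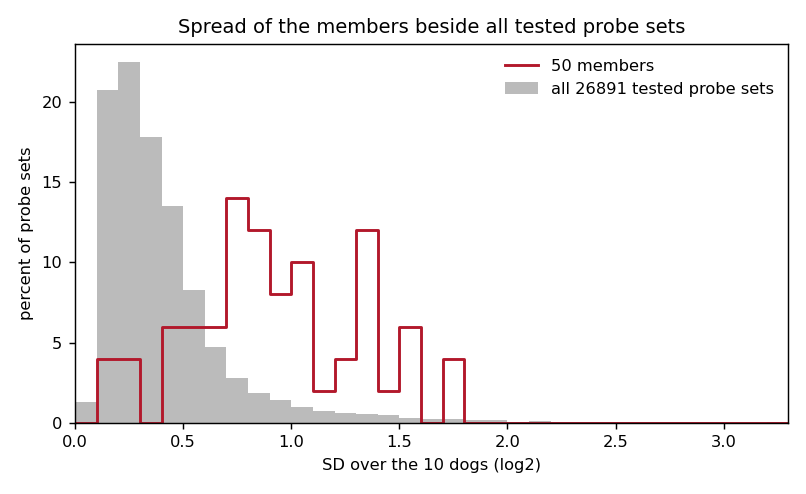
Distribution of the SD over the 10 dogs, in log2 units, for the 50 members (red line) and for all 26891 tested probe sets (gray bars), as the percent of each set in bins of 0.1. The members' median, 0.86, lies well to the right of the median of all tested probe sets, 0.33, and a small number of members stay at the left edge.

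The members also moved together from dog to dog. The correlation of a gene with the joint level of the other 49 members had a median Pearson r of 0.92 over the 10 dogs, and it was above 0.9 in 30 genes, above 0.8 in 41 and under 0.5 in 2. These correlations are given as a description, since all points share 1 array for each dog. The replication genes (16) and the genes of mitosis and cytokinesis (22) gave the same order of dogs to a large extent, with a Pearson r of 0.98 and a Spearman rho of 0.94 between their scores. The r was 0.98 again without Dal4 and Tucker, the dogs at both ends. The spread of the replication score, from -1.06 in Tucker to 1.13 in Dal4, was smaller than that of the mitosis score, from -1.51 to 1.45.

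**Figure D4:**
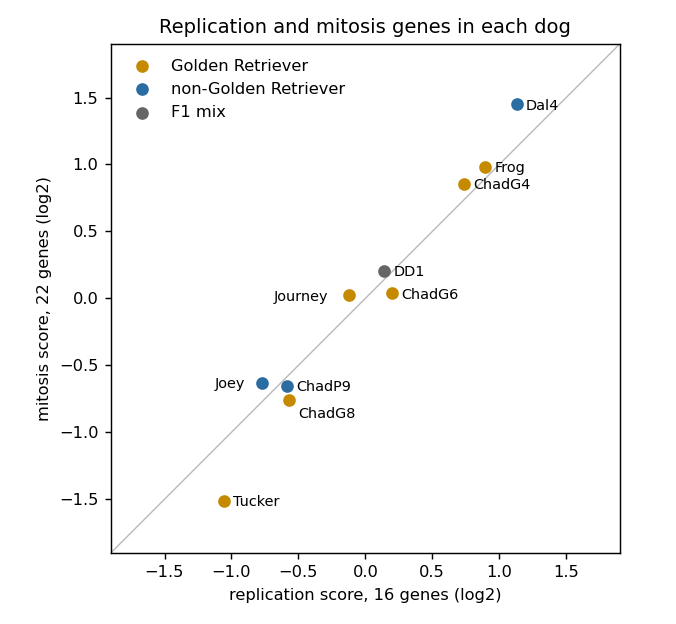
Score of 16 replication genes (horizontal) against the score of 22 genes of mitosis and cytokinesis (vertical) in each of the 10 dogs, both as the mean log2 deviation from the 10-dog mean. The gray line marks equal scores: the dogs lie along it from Tucker to Dal4, with Pearson r 0.98, and each breed group has dogs on both sides of 0.

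Among the 16 replication genes, RRM2, the regulated subunit of ribonucleotide reductase, had the widest spread of all members (SD 1.73). In Golden Retrievers its log2 signal had a lowest value of 6.39, in Tucker, a median of 9.88 and a highest value of 11.30, in Frog. It was 8.29 in ChadP9, 11.40 in Dal4, 6.79 in Joey and 10.00 in DD1, and the groups overlapped over nearly their whole range. RRM1, the large subunit of the same enzyme, spread less: its SD was 0.82, with Dal4 at 10.58 and Joey lowest at 8.23.

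MCM2, a subunit of the replicative helicase, ranged in Golden Retrievers from 4.73 through a median of 6.04 to 8.16. It was 5.10 in ChadP9, 8.21 in Dal4, 4.91 in Joey and 6.56 in DD1. ChadG4, Frog and Dal4 stood about together at the top, and Tucker, ChadP9 and Joey were below the 40th percentile of their arrays, a range near background in which a difference is compressed. MCM6, another subunit, varied only 3.18-fold between the highest and lowest dog, with an r of 0.97 with the other members.

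PCNA, the sliding clamp of the polymerases, ranged in Golden Retrievers from 10.62 (ChadG8) through a median of 11.52 to 12.37 (ChadG4). It was 11.04 in ChadP9, 13.03 in Dal4, 11.58 in Joey and 10.85 in DD1. Here Tucker, at 11.32, was not at the bottom, and the r with the other members was 0.75. TYMS ranged from 9.40 through 10.27 to 10.70 in Golden Retrievers and was 9.07 in ChadP9, 10.89 in Dal4, 8.98 in Joey and 10.40 in DD1. ChadP9 and Joey were both below every Golden Retriever for TYMS, while Dal4 was above them all.

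Of the cyclins and their kinases, CCNA2, the cyclin of S phase and mitotic entry, varied most (SD 1.51). Its log2 signal in Golden Retrievers was 4.39 at the lowest (Tucker), 7.69 at the median and 8.92 at the highest (Frog), and it was 6.73 in ChadP9, 9.63 in Dal4, 6.52 in Joey and 7.64 in DD1. Tucker was below the 40th percentile of its array, and taken at that percentile it was exceeded at least 23.6-fold by Dal4. CCNB2, a mitotic cyclin, behaved alike, from 5.58 in Tucker to 10.43 in Dal4 (28.9-fold).

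CDK1, the kinase that both of these cyclins activate, ranged from 7.20 through 8.76 to 9.86 in Golden Retrievers and was 7.43 in ChadP9, 10.12 in Dal4, 7.76 in Joey and 8.60 in DD1. CDK2, the kinase of S phase, varied 1.70-fold as measured over all 10 dogs, with Journey highest at 5.77 (SD 0.25). Its signal was below the array median in every dog, and in Tucker it was below the 40th percentile of the array. Near background a difference is compressed, so how far CDK2 varied cannot be read from this probe set. The G1 cyclins followed the joint level less closely than CCNA2. CCNE1 ranged from 6.98 through 7.37 to 8.30 in Golden Retrievers and was 6.52 in ChadP9, 9.22 in Dal4, 7.78 in Joey and 7.57 in DD1, with an r of 0.75. CCNE2 had an r of 0.82 and was likewise highest in Dal4, at 8.48, and lowest in Journey, at 5.97. CDC25C, a phosphatase that activates CDK1, had a small SD of 0.40 but an r of 0.90.

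All 3 transcription factors were highest in Dal4. FOXM1, which drives mitotic genes, ranged from 5.11 through 6.14 to 7.30 in Golden Retrievers and was 4.93 in ChadP9, 8.22 in Dal4, 5.75 in Joey and 6.32 in DD1. ChadP9 was below the 40th percentile of its array. A second FOXM1 probe set that passed the filter spread less, from 5.04 in Tucker to 6.06 in Dal4 (SD 0.28, r 0.64 with the other members). E2F1 ranged from 4.73 through 5.67 to 6.57 in Golden Retrievers and was 4.96 in ChadP9, 7.10 in Dal4, 5.05 in Joey and 5.86 in DD1. Tucker, Journey and ChadP9 were below the 40th percentile of their arrays for E2F1. The correlation of the chosen probe set with the other members was 0.95 for FOXM1, 0.91 for E2F1 and 0.98 for MYBL2.

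Among the mitotic kinases and the genes of the spindle checkpoint, BUB1B, a checkpoint protein that restrains the anaphase-promoting complex, varied most (SD 1.59). It was lowest in Tucker, where it lay under the 40th percentile of the array, and was 7.11 at the Golden Retriever median and 8.63 in ChadG4, against 5.88 in ChadP9, 9.26 in Dal4, 6.56 in Joey and 7.36 in DD1. PLK4, the kinase of centriole duplication, matched the other members almost exactly, with an r of 1.00, and ranged from 4.08 in Tucker to 8.63 in Dal4. CDC20, the activator of the anaphase-promoting complex, was 6.87 in Tucker, 9.92 at the median and 11.04 in Frog, and 9.01 in ChadP9, 10.79 in Dal4, 8.92 in Joey and 10.28 in DD1.

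BUB3, another checkpoint protein, did not share this spread among Golden Retrievers as read here, lying between 11.50 and 11.84 with a median of 11.70. It was 11.28 in ChadP9, 12.87 in Dal4, 11.78 in Joey and 11.68 in DD1, so that Dal4 lay above and ChadP9 below every Golden Retriever. A further probe set that passed the filter was also narrow (SD 0.33), with ChadP9 (10.08) again below every Golden Retriever. Another spread more, from 9.19 in Tucker to 10.02 in Frog among Golden Retrievers (r 0.79 with the other members). There ChadP9, at 9.72, lay inside their range. For BUB3, too, the spread thus depended on the probe set. UBE2C, the ubiquitin-conjugating enzyme that works with the anaphase-promoting complex, was the flattest member: its signal lay between 6.62 and 6.99 in all 10 dogs (SD 0.11), and its r with the other members was -0.23. Of the other probe sets of UBE2C, the set that passed the filter was also narrow, with an SD of 0.10. The remaining set (SD 0.26) was below the 40th percentile of the array in all 10 dogs, near background, and had an r of 0.74 with the other members. The chosen set varied with neither (r -0.14 and -0.21).

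Of the spindle and kinetochore genes, KIF11, the motor that pushes the spindle poles apart, had the largest measured range of all members, with Tucker below the 40th percentile of its array. Dal4 exceeded Tucker at least 31.5-fold, taking Tucker at that percentile, beside 32.0-fold for RRM2, whose values were all above it. The signal of KIF11 was 4.08 in Tucker, 6.98 at the Golden Retriever median and 8.45 in Frog, and 5.58 in ChadP9, 10.05 in Dal4, 6.07 in Joey and 7.43 in DD1. PRC1, which bundles the midzone microtubules, was 4.96 in Tucker and between 7.75 and 9.42 in the other Golden Retrievers, and 7.36 in ChadP9, 9.59 in Dal4, 6.81 in Joey and 8.46 in DD1. KIF2C, a microtubule-depolymerizing kinesin, was highest in ChadG4 at 7.46, with the other Golden Retrievers between 5.53 and 6.12, ChadP9 at 5.96, Dal4 at 6.92, Joey at 5.69 and DD1 at 5.95. The 3 other probe sets of KIF2C did not pass the filter. One of them varied with the chosen set (r 0.96) and was also highest in ChadG4, at 6.18, with 8 dogs below the 40th percentile of their arrays, and the others lay below it in all 10 dogs (r -0.36 and 0.07).

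CENPA, the histone of the centromere, was narrow as read here, varying 1.66-fold with Frog highest at 8.73 (SD 0.23). Its second probe set, of lower mean signal, spanned 5.06 in Tucker to 8.02 in Dal4, or at least 7.71-fold with Tucker taken at the 40th percentile of its array, with an r of 0.77 between both probe sets. The same held for ANLN, a scaffold of the contractile ring. The probe set of higher signal lay between 5.89 and 6.59 (SD 0.19), whereas the second spanned 4.71 in Tucker to 7.89 in Dal4, or at least 7.28-fold on the same basis, with an r of 0.51 between them. For both genes the spread over dogs thus depended on which probe set was read.

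Over all members, 33 genes had several probe sets, and the chosen set was compared with each of the others in 53 pairs. The median r over the 10 dogs was 0.96, with 35 pairs above 0.9 and 10 pairs, from 7 genes, under 0.5. With the probe set of largest variance in place of the one of highest mean, the joint level ran from -1.50 in Tucker to 1.55 in Dal4.

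TOP2A, the topoisomerase that untangles replicated chromosomes, had an SD of 1.52. It was 4.73 in Tucker, 7.81 at the Golden Retriever median and 9.15 in ChadG4, and 6.15 in ChadP9, 9.96 in Dal4, 7.29 in Joey and 7.60 in DD1. Of the cytokinesis genes, RACGAP1, which organizes the central spindle, followed the other members with an r of 0.98, from 6.97 in Tucker to 10.11 in Dal4. ECT2, the exchange factor that RACGAP1 recruits, was 8.37 in Tucker, close to the Golden Retriever median of 8.36, and lowest in ChadG8 at 6.84 (r 0.63). In all, 15 of the 50 members were below the 40th percentile of the array in Tucker.

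No member passed the test for a difference between the breed groups. By limma with Benjamini-Hochberg adjustment over all 26891 tested probe sets, 0 of 50 members passed an adjusted p of 0.05, where 0.00372% of all tested probe sets did (1 probe set). At an unadjusted p under 0.05, 0 members were higher in Golden Retrievers, against 1.81% of all tested probe sets, and 0 were lower, against 4.5%. By the methods' t-test on the same values the members' counts were also 0. In 0 members did the groups fail to overlap, against 0.792% of all tested probe sets with Golden Retrievers higher and 1.66% with Golden Retrievers lower. Such shares leave few calls to be looked for among 50 genes.

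The differences, Golden Retriever minus non-Golden Retriever, were above 0 in 19 members and below 0 in 31, with a median of -0.08 on the log2 scale, beside -0.02 over all tested probe sets. They ran from -0.56 (MCM4) to 0.72 (RRM2). By role, 11 of 16 replication genes were on the Golden Retriever side, and 2 of 8 cyclins and kinases, 0 of 3 transcription factors, 2 of 11 kinase and checkpoint genes and 2 of 8 spindle genes were. Of the 3 cytokinesis genes 2 were on the Golden Retriever side, and TOP2A was not. None of these splits was tested.

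The member with the smallest p was CENPA, with a mean of 8.38 ± 0.24 (SD, n = 6) for Golden Retrievers against 8.14 ± 0.16 (SD, n = 3) for the other breeds. The difference was 0.24 with a limma standard error of 0.17 (adjusted p = 0.821). By the more variable probe set of CENPA (SD 0.97) it was 0.07. For ANLN the difference was 0.20 ± 0.15 (limma SE), with the sign turned to -0.32 for its more variable probe set. For TYMS it was 0.50 ± 0.47 (SE). MCM4 (-0.56 ± 0.55), CCNE1 (-0.39 ± 0.52), PCNA (-0.34 ± 0.46), BUB3 (-0.29 ± 0.29) and CDC25C (-0.26 ± 0.27) were on the other side (log2 difference ± limma SE), and all 5 turned sign without Dal4. Without Dal4, TYMS differed by 1.12, past an unadjusted but not an adjusted threshold (limma adjusted p = 0.999). The same held for BUB3 (-0.64, limma adjusted p = 0.409) and CCNE1 (-1.05, limma adjusted p = 0.421) without ChadP9.

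The intervals show how much the 9 dogs could resolve. All 50 of the 95% intervals included 0, and their median half-width was 1.31 on the log2 scale, with a half-width over 1, that is over 2-fold, in 39 members. For CDK1 the interval ran from -1.39 to 1.77 and for TOP2A from -2.72 to 1.99, so a breed difference of several fold in either direction was not detectable for these genes. For the flat members the interval was narrow, from -0.36 to 0.19 for UBE2C. These narrow intervals hold for the chosen probe sets only. The chosen set of UBE2C varied with neither other set of that gene. For CENPA and ANLN, also flat as read here, a second probe set spread more (SD 0.97 and 0.92).

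**Figure D5:**
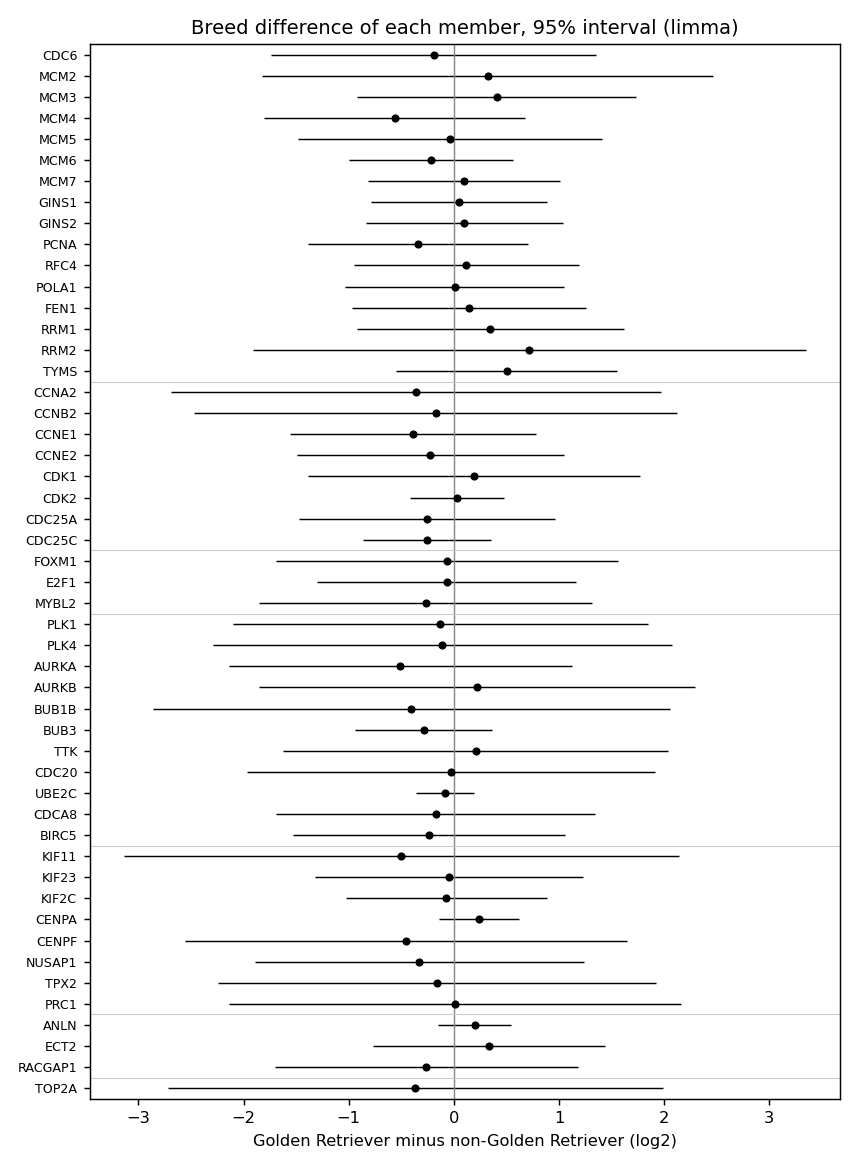
Golden Retriever minus non-Golden Retriever difference of each member, in log2 units, with the 95% interval from limma (6 and 3 dogs), grouped by role. Every interval crosses 0, and the widest, those of RRM2 and KIF11, belong to the members with the largest spread among dogs.

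Other genes of the same steps, taken from written lists, held few calls as well. The lists were chosen with earlier results of these data known. At an unadjusted p under 0.05 by limma, 1.81% of all tested probe sets were higher in Golden Retrievers and 4.5% were lower. Such shares leave few calls to be looked for in lists of this size. Of 46 further replication genes, 40 were tested: 0 were higher and 1 was lower in Golden Retrievers at an unadjusted p under 0.05, and 0 passed after adjustment. The 1 gene was ORC2, a subunit of the origin recognition complex, with a lowest value of 6.30, a median of 6.75 and a highest value of 7.30 in Golden Retrievers and with 7.19 in ChadP9, 7.59 in Dal4 and 7.52 in Joey. The difference was -0.67 ± 0.24 (limma SE; adjusted p = 0.774). ORC4, of the same complex, differed by -0.52 (limma adjusted p = 0.774) and GINS4, of the helicase complex, by 0.86 (limma adjusted p = 0.784).

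Of 50 further mitotic genes 48 were tested, and 0 passed an unadjusted p of 0.05 by limma or by the methods' t-test in either direction. The smallest p-values belonged to UBE2S, an enzyme that extends ubiquitin chains for the anaphase-promoting complex (-0.88), CKAP2 (-0.70) and HMMR (-0.65), both spindle proteins. Of 27 genes of the CDK inhibitors and the RB pathway 21 were tested, also with 0 calls. TFDP2, a partner of E2F proteins, differed by -0.40, LIN54, of the DREAM complex, by -0.64 and CCND1, the G1 cyclin, by 0.72. CCND1 lay between 11.24 and 12.61 in Golden Retrievers and was 12.22 in ChadP9, 10.99 in Dal4, 10.11 in Joey and 12.83 in DD1, so that the dog with the highest joint level had one of the lower values.

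As a description over the 10 dogs, the joint level was compared with the mean deviation of each further list. The Pearson r was 0.97 for the replication genes, 0.99 for the mitotic genes and 0.88 for the CDK inhibitor and RB list. Gene by gene among those tested, the median r was 0.81, 0.91 and 0.51 in the same order. In the CDK inhibitor and RB list 0 of 21 genes were above 0.9, and CDKN1A (-0.43) and RB1 (0.02) did not follow the joint level. Of the genes outside the members, 11093 were ranked by their r with the joint level. The 10 most alike were NCAPG (0.99), MCM10, SPAG5, MIS18A, GTSE1, DNA2, KNL1, NCAPH, MELK and KPNA2 (0.98). NCAPG, a condensin subunit, was 6.34 in Tucker, 9.66 in Frog and 10.25 in Dal4. The 5 with the lowest r were CUTA (-0.96), TSTD1, ABCF3, RREB1 and MTURN (-0.92). CUTA was highest in Tucker, at 11.82, and lowest in Dal4, at 10.17. An r above 0.9 was found in 283 of the 26891 tested probe sets (1.05%) and an r under -0.9 in 31 (0.115%). The joint level itself is built from members among these probe sets.

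2 genes of the CDK inhibitor and RB list are named after their values were seen. CDKN1A, the p53-induced CDK inhibitor, was 8.96 in ChadG4, between 11.81 and 13.44 in the other Golden Retrievers, 12.84 in ChadP9, Dal4 and Joey and 11.27 in DD1. RB1, the retinoblastoma gene, was 4.96 in Dal4, below the 40th percentile of that array, 7.77 in ChadP9, 6.08 in Joey and between 5.68 and 7.75 in Golden Retrievers.

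Some other measures moved with the joint level in part. The mean fibroblast marker deviation was lowest in Dal4 (-0.95) and ChadG4 (-0.58), both of high joint level, but it was 0.41 in Frog. The value for Dal4 rested largely on LUM, which was 4.40 there and between 12.47 and 14.08 in the other dogs. The markers did not all go 1 way in Dal4: FAP was also lowest there (6.53), whereas THY1 was highest (8.33). The Pearson r of the fibroblast deviation with the joint level was -0.55 over the 10 dogs and -0.13 without Dal4 and Tucker. The r was -0.11 for endothelial, -0.31 for smooth muscle and -0.48 for leukocyte markers. The difference of the 3′ and 5′ GAPDH control probe sets, a sign of RNA quality, was largest in Tucker (0.48) and smallest in Dal4 (0.11), with an r of -0.68 with the joint level and -0.21 without these 2 dogs. The part of these measures in the joint level was not tested.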

How the data were processed

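The deposited values were log2 signals from Affymetrix Canine_2 arrays, which the authors made with RMA (background correction, quantile normalization and summary of each probe set) in the affy package, per the labels. They were used as deposited: 42924 probe sets besides 111 controls, 26891 of them tested. Gene names came from the array annotation, which gave 1 gene to 29254 probe sets, several to 439 and none used here to 13231. Groups came from the labels, and sex from the study's table of dogs.

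limma 3.58.1 (R 4.3.3; lmFit, eBayes) compared 6 Golden Retrievers with 3 non-Golden Retrievers, F1 left out, two-sided, with Benjamini-Hochberg adjustment over all tested probe sets. Scripts were tested on simulated data. The precision is limited by the number of arrays. Quantile normalization gives all arrays nearly the same distribution, so only levels relative to the other transcripts were compared. Named genes were index genes of each role, the 8 members of smallest p, and the 8 of largest and 5 of smallest SD. Others were the 3 of smallest p in each further list and members with a dog standing apart. The 10 genes of highest and the 5 of lowest (most negative) r with the joint level were named too. Members and lists were chosen with earlier results of these data known. p-values measure only the spread between these cultures. Alternatives were other filters, centring, tests, probe sets, F1 placements, male dogs, and leaving out dogs. Promoter motifs were not analysed here.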

Additional observations from a re-analysis of the deposited data

Results flagged for a closer look

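Each of 50 members, 6 role scores, the joint level and 9 further genes was checked among the 6 Golden Retrievers for a dog whose gap to the nearest other dog took up more than 0.625 of the group's range, which chance alone gives in about 1 in 20 such groups. Of these 66 checks 2 did so. KIF2C was 7.46 in ChadG4 against 6.12 in the next dog, a gap of 0.698 of the range. PRC1 was 4.96 in Tucker, below the 40th percentile of that array, against 7.75 in the next dog, a gap of 0.626 of the range. This PRC1 gap passed 0.625 only narrowly, and it would not pass with Tucker taken at that percentile. In the other PRC1 probe sets that passed the filter, Tucker was also lowest. There the gap to the next Golden Retriever stayed under 0.625 of the range, so the PRC1 flag depended on the probe set. The joint level and the role scores had no such dog. CDKN1A, at 8.96 in ChadG4 against 11.81 in the next dog, a gap of 0.635 of the range, was named after its values were seen, so it is given as a description and is not counted among these checks.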

How the results depend on the processing

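The joint level difference between the groups moved by less than the SD among Golden Retrievers under every alternative run, from -0.43 (male dogs only) to 0.61 (without Dal4). It was 0.44 without Dal4 and ChadG4, an alternative chosen after seeing the data, and its range with 1 dog left out was -0.40 to 0.61. The SD over the dogs ranged from 0.74 to 0.90 with 1 dog left out. The count of members past an adjusted p of 0.05 was 0 under all alternatives. At an unadjusted p it was 0 to 1 higher and 0 to 2 lower with 1 dog left out, and 1 higher (TYMS) without Dal4 and ChadG4. Over all probe sets, the adjusted count was 1 to 2 with 1 dog left out (2 without Joey), 2 by the methods' t-test, 0 with F1 as a non-Golden Retriever and 2 without Dal4 and ChadG4. The unadjusted counts with 1 dog left out were 343 to 1002 higher and 625 to 2142 lower, both largest without ChadP9 and smallest without Dal4. Without the filter on low values 749 of 42924 were higher, beside 488 of 26891 in the main fit. With the filter on variance 708 of 18541 were lower, beside 1211 of 26891 in the main fit, so these 2 counts also reflect the number tested. With F1 as a non-Golden Retriever 280 were higher and 642 lower, and without Dal4 and ChadG4 666 were lower. Among further cell cycle genes the unadjusted counts with 1 dog left out were 0 to 2 higher and 0 to 8 lower. The 8 came without ChadP9, where 2142 of all 26891 tested probe sets were lower. The 0 came without Dal4, where 625 were lower. 2 were lower without the filter, with arrays centred on their medians and with F1 as a Golden Retriever, ORC4 joining ORC2, and 1 was higher without Dal4 and ChadG4. Of 295 recomputed differences of 17 named genes, 285 kept their direction and none passed an adjusted p of 0.05. ANLN was -0.32 by its more variable probe set. The others turned without Dal4, the range with 1 dog left out being -1.07 to 0.15 for MCM4, -0.64 to 0.16 for BUB3, -0.46 to 0.075 for CDC25C, -1.05 to 0.30 for CCNE1 and -0.76 to 0.23 for PCNA. 4 of them also turned without Dal4 and ChadG4, MCM4 to 0.14, BUB3 to 0.14, CCNE1 to 0.26 and PCNA to 0.065. The cause was not tested. No paired analysis was possible because the groups held different dogs, each measured once, and the design has no pairs. The promoter motif description was not run.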
